A study of Sus scrofa with 12 samples.

Results

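The transcripts described are those of 6 genes of the interleukin-1 family and the inflammasome, IL1A, IL1B, IL18, IL1R2, PYCARD and NLRP12. They were taken by symbol from a table of 7480 genes, and all 6 were present. The table holds 12 libraries in 3 groups of 4. The labels describe them as peripheral blood mononuclear cells (PBMC) of crossbred piglets (Duroc × Landrace × Yorkshire), 4 weeks old. The treatment was a miR-124 sponge together with Salmonella in the first group and Salmonella alone in the second, and the control group was not treated. A sponge offers a microRNA decoy binding sites and so keeps it from its targets. The series text can be read as treatment of the animals or of their cells, which the labels do not settle. The series text names the bacterium as Salmonella Typhi and the collection time as 12 h after treatment. It counts 20 piglets, 10 of each sex, and does not say which animal gave which library. The p-values therefore measure the spread between these libraries, which may be technical. The titles of the sponge plus Salmonella libraries name miR-124 and Salmonella without the word sponge, which comes from their treatment labels.

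Interleukin-1 alpha, interleukin-1 beta and interleukin-18 are related cytokines that drive the recruitment and activation of leukocytes. The alpha and beta forms of interleukin-1 also drive fever. The beta form and interleukin-18 are made as inactive precursors. An inflammasome, a complex of a sensor, the adaptor encoded by PYCARD and a caspase, cuts the precursors so that the active cytokines can leave the cell. IL1R2 encodes a decoy receptor that binds interleukin-1 without passing on a signal, and NLRP12 encodes a NOD-like receptor known in mouse and human mainly as a brake on inflammatory signalling. In mouse macrophages Salmonella is a well studied trigger of inflammasomes. The data measure transcripts only, so cleavage and release of the cytokines were not measured.

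Values are given in log2 units as deposited, so a difference of 1 unit is a doubling. The base of the logarithm was taken as 2, and the read depth behind the values is unknown. A set of 185 symbols from gene families taken as silent in blood, such as olfactory receptors, averaged 4.62 log2 units. The 95th percentile of their gene means over the 12 libraries was 4.97, and values at or below it were read as background. Values of single libraries can spread more widely than such means, so for a single value this limit is only a guide. Library medians ran from 5.24 to 5.31 in the sponge plus Salmonella libraries, from 5.20 to 5.27 in the Salmonella libraries and from 5.11 to 5.19 in the control libraries. The sponge plus Salmonella columns stood apart in their format. In them, 65.1% to 71.4% of all values occurred for more than 1 gene. That share was at most 0.0267% in the Salmonella columns and 0.0802% in the control columns. Of the 24 values of the 6 genes in the sponge plus Salmonella columns, 10 were shared with another gene, and none of the 48 in the other columns. All comparisons with the sponge plus Salmonella group carry this difference between columns, and treatment and column format cannot be told apart. In bulk libraries, fewer cells of a type and less RNA per cell cannot be told apart either.

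With Salmonella, IL1B and PYCARD were higher than in control libraries, IL1R2 and NLRP12 were lower, IL1A was lower within the background range, and IL18 was not called. With sponge plus Salmonella against Salmonella, IL18 and IL1R2 were higher, PYCARD was lower, IL1A was higher within the background range, and IL1B and NLRP12 were not called. With sponge plus Salmonella against control, IL1B and IL18 were higher, PYCARD and NLRP12 were lower, and IL1A and IL1R2 were not called. A gene was called at an adjusted p below 0.05 in a limma fit over all 7480 genes. By this rule 5 of the 6 genes were called for Salmonella against control, where 33.6% of all genes were called. For sponge plus Salmonella against Salmonella 4 of the 6 were called, where 25.0% of all genes were. For sponge plus Salmonella against control 4 of the 6 were called, where 40.9% of all genes were. The 6 genes were picked with such results known, so these shares carry no weight of their own. Lack of overlap between the values of a pair of groups was also common among all genes. It held for 35.6% of them for Salmonella against control and for 23.8% for sponge plus Salmonella against Salmonella. For sponge plus Salmonella against control it held for 39.7%. Lack of overlap in the 6 genes is therefore given below as a description only. Each of the groups, sponge plus Salmonella included, enters a pair of these comparisons, whose differences are therefore not independent.

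**Figure D1:**
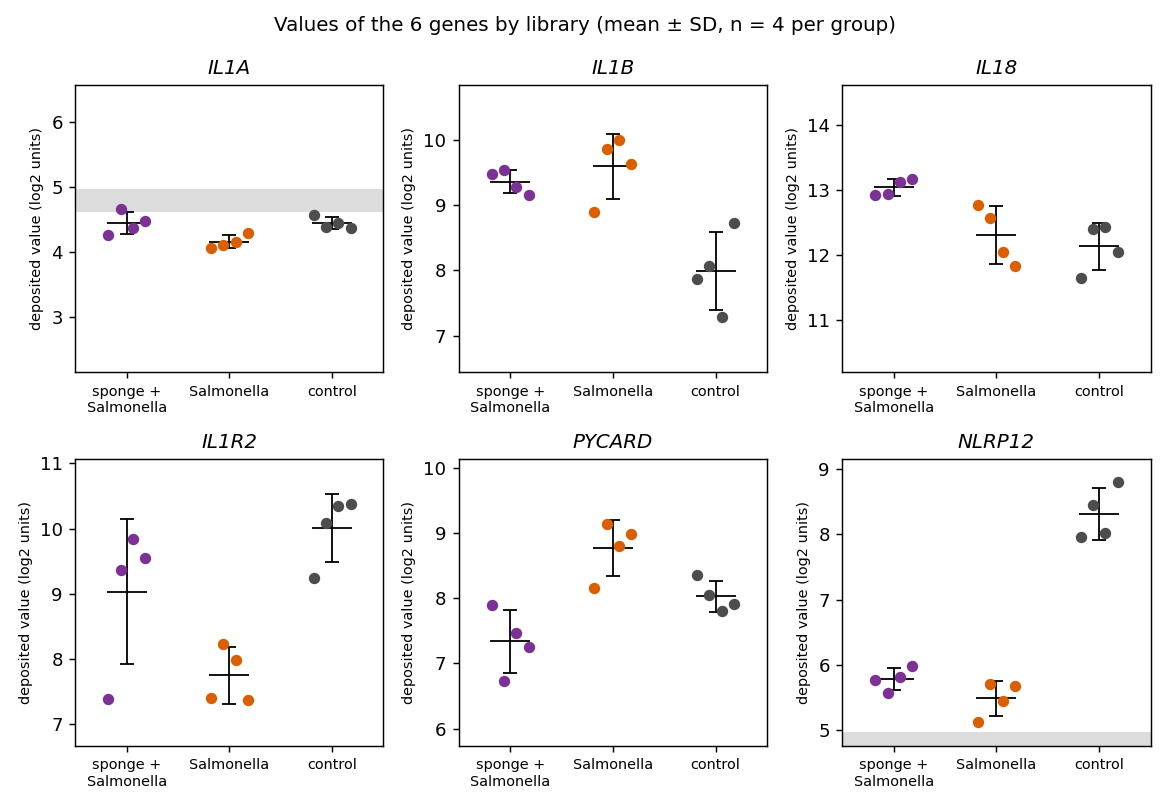
Deposited values in log2 units (vertical axes, each spanning the same number of units) by group for the 6 genes, with 1 point per library in replicate order, the mean as a bar and the SD as whiskers (n = 4). The grey band runs from the mean of the silent set, 4.62, to the 95th percentile of its gene means, 4.97. IL1A lies below the band in nearly every library, and NLRP12 separates the control libraries from all others.

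IL1B, which encodes interleukin-1 beta, was higher in both groups that received Salmonella than in control libraries. It stood at 9.48, 9.53, 9.27 and 9.16 log2 units in the sponge plus Salmonella libraries (replicates 1 to 4). In the Salmonella libraries it stood at 8.89, 9.86, 10.005 and 9.63, and in the control libraries at 7.87, 8.07, 7.28 and 8.74. All 8 libraries with Salmonella lay above all control libraries, by a narrow margin between Salmonella replicate 1 and control replicate 4. The group means were 9.36 ± 0.18 with sponge plus Salmonella, 9.60 ± 0.49 with Salmonella and 7.99 ± 0.60 in control libraries (SD, n = 4). The log2 fold change was 1.60 ± 0.28 (SE) for Salmonella against control (limma adjusted p = 5.6e-04). It was 1.37 ± 0.28 for sponge plus Salmonella against control (limma adjusted p = 0.00164). Both rises were larger than the SD of any of the groups. Monocyte markers were also higher in both groups with Salmonella, with values given with the other marker genes at the end, and their part in the rises was not tested. Sponge plus Salmonella differed from Salmonella by -0.23 log2 units, with a 95% interval of -0.83 to 0.36 (limma adjusted p = 0.556), so a change in either direction within those bounds was not resolved.

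The gene lies on chromosome 3 (43670126 to 43677125, Sscrofa11.1, RefSeq), and IL1A follows it on the same chromosome (43718320 to 43731668), 41194 bases away. In RefSeq a further pig gene, IL1B2, carries IL1B as a second name and has no assigned chromosome. The table has 1 IL1B row, so reads of these 2 genes cannot be told apart in it.

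IL1A, which encodes interleukin-1 alpha, did not rise above background in any group. It stood at 4.27, 4.67, 4.37 and 4.48 log2 units in the sponge plus Salmonella libraries, at 4.06, 4.12, 4.16 and 4.29 in the Salmonella libraries and at 4.57, 4.38, 4.45 and 4.37 in the control libraries. Of the 12 values, only that of sponge plus Salmonella replicate 2 exceeded the silent mean of 4.62, and none exceeded 4.97. In the sponge plus Salmonella columns each IL1A value was shared with 4 to 12 other genes. Differences were nevertheless called, at -0.29 ± 0.08 for Salmonella against control (limma adjusted p = 0.0146) and 0.29 ± 0.08 for sponge plus Salmonella against Salmonella (limma adjusted p = 0.0198). The difference of sponge plus Salmonella from control was 0.00 ± 0.08 (limma adjusted p = 0.988). Because all 3 group means lay below the silent mean, no size of change in transcript is read from these values. The first of the calls ended without control replicate 1 (limma adjusted p = 0.0509) and the other without Salmonella replicate 2 (0.0529). Over all alternatives the p ran from 0.00527 to 0.0558 for the first and from 0.00708 to 0.0686 for the other.

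IL18 was highest in the sponge plus Salmonella libraries. It stood there at 12.92, 12.94, 13.11 and 13.17 log2 units, against 12.77, 12.57, 12.05 and 11.83 in the Salmonella libraries and 11.65, 12.40, 12.43 and 12.05 in the control libraries. Every sponge plus Salmonella library lay above every other library, while the Salmonella and control values overlapped. The group means were 13.04 ± 0.12 with sponge plus Salmonella, 12.30 ± 0.44 with Salmonella and 12.13 ± 0.37 in control libraries (SD, n = 4). The log2 fold change of sponge plus Salmonella was 0.73 ± 0.21 (SE) against Salmonella (limma adjusted p = 0.0231) and 0.90 ± 0.21 against control (limma adjusted p = 0.00425). Salmonella against control gave 0.17, with a 95% interval of -0.28 to 0.63 (limma adjusted p = 0.569). The first of these calls ended in 4 of 20 alternatives, without sponge plus Salmonella replicates 3 or 4 or Salmonella replicates 3 or 4 (limma adjusted p 0.0551 to 0.0744, and 0.00646 to 0.0744 over all 20). None of the IL18 values in the sponge plus Salmonella columns was shared with another gene. IL18 lies on chromosome 9 (39839959 to 39861258, Sscrofa11.1).

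IL18RAP, which encodes a chain of the interleukin-18 receptor, had its lowest mean with sponge plus Salmonella, where IL18 was highest. It averaged 9.97 ± 0.76 log2 units in the sponge plus Salmonella libraries, 11.24 ± 0.74 in the Salmonella libraries and 10.84 ± 0.45 in the control libraries (SD, n = 4). The log2 fold change of sponge plus Salmonella against Salmonella was -1.27 ± 0.38 (limma adjusted p = 0.0256). This call ended without sponge plus Salmonella replicates 1 or 3 or Salmonella replicates 2, 3 or 4 (limma adjusted p 0.0607 to 0.0832, and 0.00346 to 0.0832 over all alternatives). Against control it did not pass (-0.87 ± 0.38, limma adjusted p = 0.0819). It passed there without sponge plus Salmonella replicate 4 or Salmonella replicate 1 (0.0284 to 0.0398, and 0.0284 to 0.225 over all alternatives). Unlike those of IL18, the sponge plus Salmonella values of IL18RAP overlapped with both other groups. The exact permutation test gave p = 0.0857 against Salmonella and p = 0.114 against control.

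IL1R2, the decoy receptor gene, was lower in Salmonella libraries than in control libraries. It stood at 7.39, 9.36, 9.84 and 9.55 log2 units in the sponge plus Salmonella libraries, at 7.40, 8.24, 7.99 and 7.37 in the Salmonella libraries and at 9.25, 10.08, 10.34 and 10.37 in the control libraries. Sponge plus Salmonella replicate 1 lay among the Salmonella libraries, and the other 3 libraries of its group lay above all of them and within the control range. The group means were 9.03 ± 1.11 with sponge plus Salmonella, 7.75 ± 0.43 with Salmonella and 10.01 ± 0.53 in control libraries (SD, n = 4). Salmonella against control gave a log2 fold change of -2.26 ± 0.43 (SE, limma adjusted p = 0.00112), with no overlap between the groups.

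The difference of IL1R2 between sponge plus Salmonella and Salmonella rested on the choice of libraries. It was 1.28 ± 0.43 (limma adjusted p = 0.0415), and the groups overlapped through sponge plus Salmonella replicate 1. Without that library the difference was 1.83 (limma adjusted p = 7.3e-04). The call ended without Control replicate 2, without Salmonella replicates 1, 3 or 4, or without sponge plus Salmonella replicates 2, 3 or 4 (limma adjusted p 0.0540 to 0.123). Over all 20 alternatives it ended in 10, with an adjusted p from 7.3e-04 to 0.123. The exact permutation test of the gene alone gave p = 0.114. Sponge plus Salmonella against control gave -0.98 ± 0.43 and was not called (limma adjusted p = 0.0828, 95% interval -1.90 to -0.06). That comparison passed without sponge plus Salmonella replicate 3 or control replicate 1 (limma adjusted p 0.0445 to 0.0482). It was smallest, at -0.43, without sponge plus Salmonella replicate 1, and its adjusted p ran from 0.0211 to 0.242 over the alternatives. IL1R2 lies on chromosome 3 (52367434 to 52406393, Sscrofa11.1).

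PYCARD, which encodes the inflammasome adaptor ASC, was highest with Salmonella and lowest with sponge plus Salmonella, and all 3 differences were called. It stood at 7.90, 6.73, 7.46 and 7.25 log2 units in the sponge plus Salmonella libraries, at 8.15, 9.14, 8.80 and 8.98 in the Salmonella libraries and at 8.36, 8.04, 7.80 and 7.90 in the control libraries. The sponge plus Salmonella libraries all lay below the Salmonella libraries. The control values overlapped with both other groups, with Salmonella through Salmonella replicate 1 and with sponge plus Salmonella through its replicate 1. The group means were 7.33 ± 0.49 with sponge plus Salmonella, 8.77 ± 0.44 with Salmonella and 8.03 ± 0.24 in control libraries (SD, n = 4).

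Sponge plus Salmonella against Salmonella gave a PYCARD log2 fold change of -1.43 ± 0.26 (SE, limma adjusted p = 0.0016), which was called in all 20 alternatives (adjusted p 3.1e-04 to 0.00712). Salmonella against control gave 0.74 ± 0.26 (limma adjusted p = 0.037). That call ended in 8 of 20 alternatives, among them without any of Salmonella replicates 2, 3 or 4 or control replicates 2, 3 or 4 (limma adjusted p 0.0689 to 0.109, and 0.00354 to 0.109 over all 20). Sponge plus Salmonella against control gave -0.69 ± 0.26 (limma adjusted p = 0.043). It ended in 9 of 20 alternatives, 7 of them without sponge plus Salmonella replicates 2, 3 or 4, Salmonella replicate 3 or control replicates 1, 2 or 4 (limma adjusted p 0.0551 to 0.136, and 0.0141 to 0.136 over all 20). The exact permutation test gave p = 0.0571 for each of these differences from control.

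NLRP12 fell in both groups that received Salmonella, with the smallest adjusted p of the 6 genes in each comparison with control. It stood at 5.77, 5.57, 5.81 and 5.99 log2 units in the sponge plus Salmonella libraries, at 5.12, 5.71, 5.44 and 5.68 in the Salmonella libraries and at 7.97, 8.46, 8.03 and 8.80 in the control libraries. All 8 libraries with Salmonella lay far below every control library. The group means were 5.79 ± 0.17 with sponge plus Salmonella, 5.49 ± 0.27 with Salmonella and 8.31 ± 0.39 in control libraries (SD, n = 4). The log2 fold change was -2.83 ± 0.23 (SE) for Salmonella against control (limma adjusted p = 1.6e-06) and -2.53 ± 0.23 for sponge plus Salmonella against control (limma adjusted p = 2.1e-05). Sponge plus Salmonella differed from Salmonella by 0.30, with a 95% interval of -0.19 to 0.79 (limma adjusted p = 0.353). The lowest NLRP12 value, 5.12 in Salmonella replicate 1, lay above the background limit of 4.97, as did all the others. It was nevertheless below the median of its own library, 5.25, and so close to background. NLRP12 lies on chromosome 6 (56402617 to 56425038, Sscrofa11.1).

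**Figure D2:**
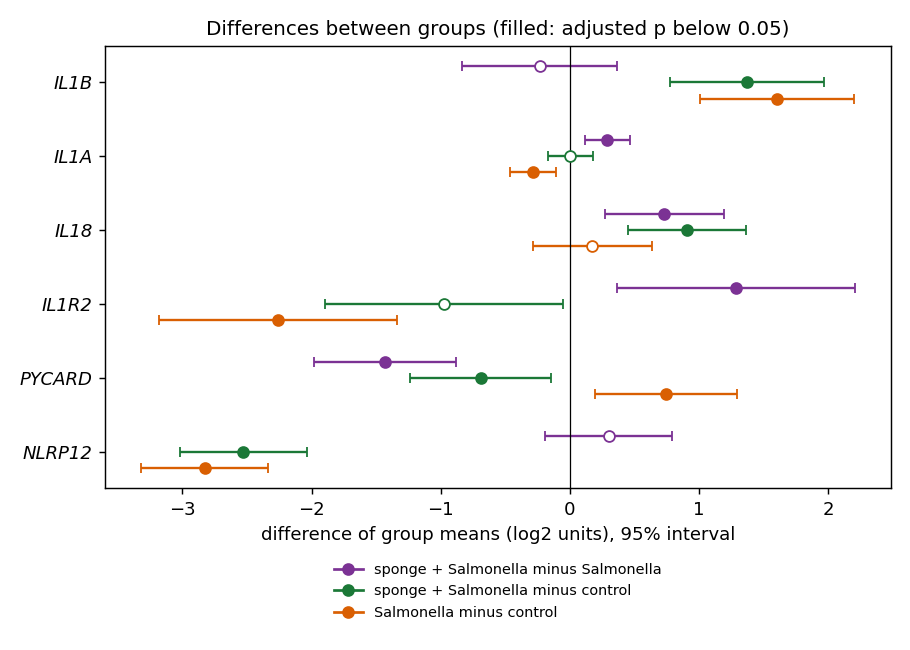
Differences of group means in log2 units (horizontal axis) with 95% intervals from the limma fit for the 6 genes in the 3 comparisons, filled where the adjusted p over all genes was below 0.05. PYCARD is the gene whose difference from control is positive with Salmonella (0.74) and negative with sponge plus Salmonella (-0.69), both called. These calls ended in 8 and 9 of 20 alternatives, and the values of both groups overlapped with control.

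Among the Salmonella libraries, replicate 1 had the lowest IL1B (8.89), PYCARD (8.15), NLRP12 (5.12) and IL1A (4.06) and the highest IL18 (12.77). Among the sponge plus Salmonella libraries, replicate 1 had the lowest IL1R2 (7.39) and the highest PYCARD (7.90). Differences between a pair of genes within a library were then taken, since a shift of a whole library cancels in them. Their size also depends on transcript length, so only their change between groups was read, with no test. The pairs come from genes picked with results known, so their separation between groups is not independent of the values of the single genes. IL1B minus IL1R2, the ligand set against its decoy, was 0.33 ± 1.22 log2 units with sponge plus Salmonella, 1.85 ± 0.35 with Salmonella and -2.02 ± 0.74 in control libraries (SD, n = 4). The Salmonella values of 1.49 to 2.26 and the control values of -3.06 to -1.37 did not overlap. The sponge plus Salmonella values ran from -0.56 to 2.09, the last in replicate 1.

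PYCARD minus NLRP12, the adaptor set against the NOD-like receptor, gave 3 groups without overlap. NLRP12 alone already separated control from both other groups, and PYCARD alone separated sponge plus Salmonella from Salmonella. The separation of their difference is therefore no further support. The difference was 1.55 ± 0.44 with sponge plus Salmonella (1.16 to 2.12), 3.28 ± 0.18 with Salmonella (3.03 to 3.43) and -0.29 ± 0.53 in control libraries (-0.90 to 0.39; SD, n = 4). IL18 minus IL18RAP was 3.06 ± 0.73 with sponge plus Salmonella, 1.06 ± 1.01 with Salmonella and 1.29 ± 0.62 in control libraries. Sponge plus Salmonella overlapped with Salmonella through Salmonella replicate 1, whose value of 2.57 lay above the lowest sponge plus Salmonella value of 2.33. It did not overlap with control, and the Salmonella and control values overlapped with each other.

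**Figure D3:**
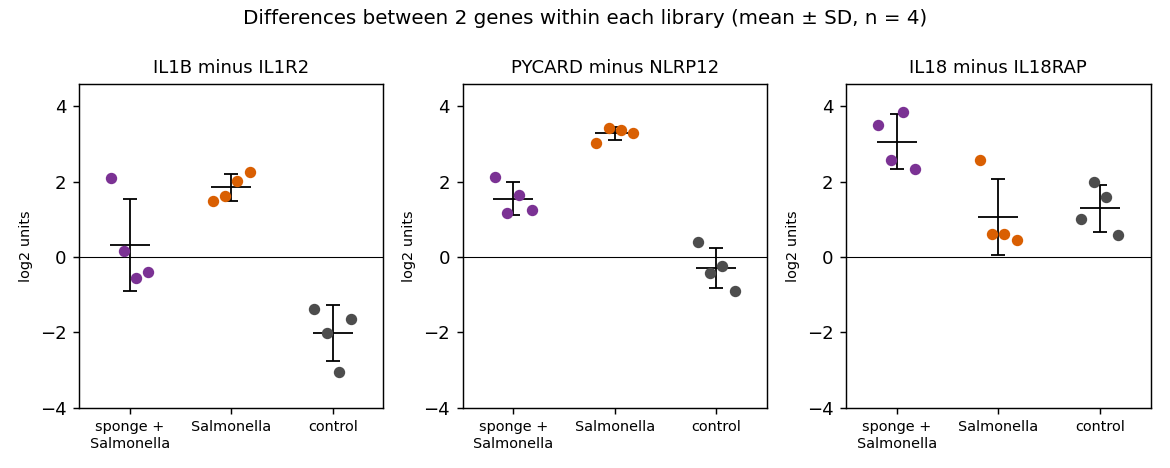
Difference of the log2 values of a pair of genes within each library (vertical axes, log2 units), with 1 point per library, the mean as a bar and the SD as whiskers (n = 4). PYCARD minus NLRP12 runs from 3.03 to 3.43 with Salmonella, above all other libraries.

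Of 80 other genes listed for the pathway, 23 were measured, and the others, among them the genes of caspase-1, the interleukin-1 receptor antagonist and the signalling interleukin-1 receptor, were not analysed here. Salmonella against control had 6 of the 23 higher and 2 lower, with a median log2 fold change of 0.22 against -0.02 over all genes. Of all genes, 15.7% were called higher and 17.9% lower there. Sponge plus Salmonella against Salmonella had 1 of the 23 higher and 6 lower, with a median of -0.28 against -0.04, where 11.9% of all genes were higher and 13.2% lower. Sponge plus Salmonella against control had 3 of the 23 higher and 7 lower, with a median of -0.13 against -0.07, where 17.9% of all genes were higher and 23% lower. In both directions together, the 8, 7 and 10 genes called lay near the shares of all genes called, 33.6%, 25.0% and 40.9%, and are not a result about the list. Of the 23, IL33, IL1RL2, IL1RAPL1, NLRP4, NLRP6 and NLRP9 had all 3 group means below 4.97 and are read as background. Their calls are counted above, but no change in transcript is read from them. IL33 differed by -0.60 ± 0.10 between sponge plus Salmonella and Salmonella (limma adjusted p = 7.6e-04) and by -0.44 ± 0.10 between sponge plus Salmonella and control (limma adjusted p = 0.00248). For sponge plus Salmonella against control, IL1RL2 (-0.27 ± 0.08, limma adjusted p = 0.0117), NLRP4 (-0.42 ± 0.14, 0.0275) and NLRP9 (-0.56 ± 0.13, 0.0037) were also called. NLRP9 was called for Salmonella against control as well (-0.43 ± 0.13, limma adjusted p = 0.0188). IL1RL2 and NLRP4 passed there only without control replicate 2 (0.0492) and without Salmonella replicate 1 (0.0499) among the fits that left out a library. Of the calls, that of NLRP9 for Salmonella against control ended without Salmonella replicate 2 (limma adjusted p = 0.0582, and 0.00928 to 0.0582 over the alternatives). That of NLRP4 for sponge plus Salmonella against control ended without sponge plus Salmonella replicate 3 or control replicates 1 or 4 (0.0622 to 0.0872, and 0.0079 to 0.0872 over the alternatives).

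Of 6 measured genes of receptor signalling, the kinase gene IRAK2 and IRAK3, which encodes an inhibitory member of the same family, were higher with Salmonella. IRAK2 averaged 7.27 ± 0.30 log2 units with sponge plus Salmonella, 7.29 ± 0.51 with Salmonella and 6.46 ± 0.12 in control libraries (SD, n = 4). Its log2 fold change was 0.83 ± 0.25 for Salmonella (limma adjusted p = 0.0175) and 0.81 ± 0.25 for sponge plus Salmonella (limma adjusted p = 0.0169), each against control. These calls ended without Salmonella replicate 2 (0.0569, and 0.00292 to 0.0569 over the alternatives) and without sponge plus Salmonella replicate 4 (0.0556, and 0.00601 to 0.0556). IRAK3 averaged 8.22 ± 0.42 with sponge plus Salmonella, 9.13 ± 0.35 with Salmonella and 8.32 ± 0.32 in control libraries. It changed by 0.81 ± 0.23 for Salmonella against control (limma adjusted p = 0.0156) and by -0.91 ± 0.23 for sponge plus Salmonella against Salmonella (limma adjusted p = 0.0125). The first of these ended without Salmonella replicates 2 or 3 (0.0501 to 0.0514, and 0.00398 to 0.0514 over the alternatives). TOLLIP, which encodes an adaptor that dampens interleukin-1 and Toll-like receptor signalling, averaged 6.21 ± 0.16 with sponge plus Salmonella, 7.07 ± 0.34 with Salmonella and 7.26 ± 0.31 in control libraries. It was lower with sponge plus Salmonella than with Salmonella (-0.86 ± 0.22, limma adjusted p = 0.0119) and than in control libraries (-1.05 ± 0.22, limma adjusted p = 0.002). IRAK1, TRAF6 and PELI1 were not called in any of the 3 comparisons.

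Among the 7 measured sensors and NOD-like receptors, NOD1, which senses bacterial cell wall fragments, was highest with Salmonella. It averaged 5.83 ± 0.58 log2 units with sponge plus Salmonella, 7.35 ± 0.58 with Salmonella and 6.30 ± 0.50 in control libraries (SD, n = 4). It was higher with Salmonella than in control libraries (1.06 ± 0.35, limma adjusted p = 0.0292) and lower with sponge plus Salmonella than with Salmonella (-1.52 ± 0.35, limma adjusted p = 0.00638). The rise was lost without Salmonella replicates 2 or 4 or control replicates 2, 3 or 4 (0.0635 to 0.0913, and 0.0032 to 0.0913 over the alternatives). NLRP3, the sensor of the best known inflammasome, averaged 8.40 ± 0.29 with sponge plus Salmonella, 9.07 ± 0.12 with Salmonella and 8.84 ± 0.04 in control libraries. It was lower with sponge plus Salmonella than with Salmonella (-0.67 ± 0.16, limma adjusted p = 0.00736), while Salmonella against control gave 0.23 and did not pass (limma adjusted p = 0.291).

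Against control, NLRP3 was also called lower with sponge plus Salmonella (-0.44 ± 0.16, limma adjusted p = 0.0346). That call ended without any 1 of the control libraries or without sponge plus Salmonella replicates 2 or 4 (limma adjusted p 0.0596 to 0.106, and 0.00977 to 0.106 over the alternatives). NLRC3, known in mouse as an inhibitory NOD-like receptor, was lower in both groups with Salmonella than in control libraries. It averaged 6.83 ± 0.36 with sponge plus Salmonella, 6.28 ± 0.49 with Salmonella and 8.06 ± 0.23 in control libraries. Its log2 fold change was -1.78 ± 0.26 for Salmonella against control (limma adjusted p = 1.3e-04) and -1.23 ± 0.26 for sponge plus Salmonella against control (limma adjusted p = 0.00191). The difference between the groups with Salmonella was 0.55 ± 0.26 and was not called (limma adjusted p = 0.126), though it was without Salmonella replicate 2 (0.0474, and 0.0474 to 0.28 over the alternatives). NLRP8, known in human mainly from egg cells, averaged 10.66 ± 0.37 with sponge plus Salmonella, 8.81 ± 0.79 with Salmonella and 8.41 ± 0.73 in control libraries. It was higher with sponge plus Salmonella than with Salmonella (1.85 ± 0.38, limma adjusted p = 0.00362) and than in control libraries (2.24 ± 0.38, limma adjusted p = 5.0e-04). Even in control libraries NLRP8 ranked between the 75.8 and 89.9 percentiles of all genes. What its row measures in blood cells was not tested.

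Of 5 measured regulators, 3 were higher with Salmonella than in control libraries, where 15.7% of all genes were. None passed between sponge plus Salmonella and Salmonella, where 25.0% of all genes did in either direction. PANX1, which encodes a membrane channel, averaged 5.59 ± 0.48 log2 units with sponge plus Salmonella, 6.24 ± 0.33 with Salmonella and 5.04 ± 0.33 in control libraries (SD, n = 4; Salmonella against control 1.20 ± 0.28, limma adjusted p = 0.004). SERPINB9 and SERPINB1, which encode protease inhibitors of leukocytes, rose by 1.12 ± 0.28 (limma adjusted p = 0.00649) and 0.58 ± 0.19 (limma adjusted p = 0.0312). SERPINB1 lost its call without Salmonella replicates 3 or 4 or control replicates 1 or 2 (0.0706 to 0.0967, and 0.0197 to 0.0967 over the alternatives). PANX1 and SERPINB9 would pass between sponge plus Salmonella and Salmonella without sponge plus Salmonella replicate 2 (0.0419, and 0.0419 to 0.251 over the alternatives) and without its replicate 1 (0.0328, and 0.0328 to 0.248). TXNIP, which encodes a thioredoxin-binding protein that can bind NLRP3, averaged 13.88 ± 0.03 with sponge plus Salmonella, 13.67 ± 0.10 with Salmonella and 13.39 ± 0.07 in control libraries. It was higher with sponge plus Salmonella than in control libraries (0.49 ± 0.12, limma adjusted p = 0.00431). TXNIP ranked between the 99.76 and 99.99 percentiles of all genes over the libraries, at the top end of the scale. The highest value of a column ran from 14.01 to 14.06 in control libraries and from 14.22 to 15.01 with sponge plus Salmonella. The part of that in the difference was not tested. TXNIP would also pass for Salmonella against control without a variance trend (0.0219) or with library weights (0.0318; 0.0219 to 0.58 over the alternatives). Between sponge plus Salmonella and Salmonella it would pass with quantile normalization (0.0456, and 0.0456 to 0.345 over the alternatives). NEK7 and NINJ1, the gene of a protein that ruptures the membrane of dying cells, were not called in any of the 3 comparisons.

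**Figure D4:**
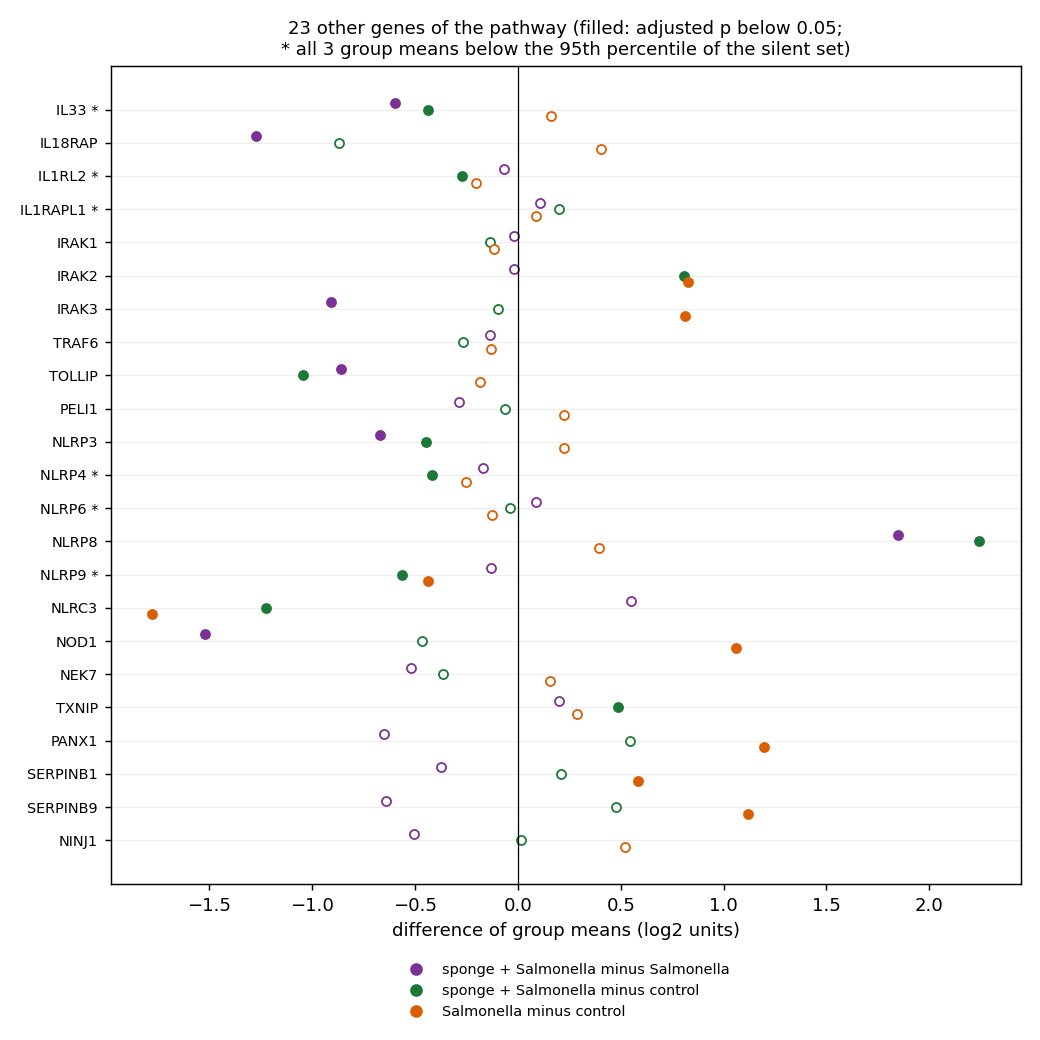
Differences of group means in log2 units (horizontal axis) for the 23 other measured genes of the pathway, ordered by role, filled where the limma adjusted p over all genes was below 0.05. Asterisks mark the 6 genes read as background, with all group means under 4.97. NOD1, IRAK3 and NLRP3 are lower with sponge plus Salmonella than with Salmonella, and NLRP8 is higher.

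For each of the 6 genes, the 3 genes of the table with the most similar profile over the 12 libraries were listed by the root mean square difference of values, after each gene's own mean was subtracted. A smaller value means a closer profile. For IL1B these were ABHD3 (0.26 log2 units), JUNB (0.27) and SIPA1L2 (0.27), against a spread of IL1B about its own mean of 0.81. JUNB encodes a transcription factor of the AP-1 family. For IL18 they were SLC44A4 (0.11), SLC16A12 (0.13) and C8ORF37 (0.16), against a spread of 0.49. SLC44A4, a transporter gene known mainly from epithelia, averaged 13.19 with sponge plus Salmonella, 12.52 with Salmonella and 12.32 in control libraries. The symbol C8ORF37 was absent from the pig gene tables used.

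For PYCARD the closest were CDC42EP4 (0.22), ANXA5 (0.23) and PRELID1 (0.24), against a spread of 0.68. ANXA5, which encodes annexin A5, averaged 10.65 with sponge plus Salmonella, 11.72 with Salmonella and 11.16 in control libraries. The closest to IL1R2 were DPEP2 (0.48), FGF9 (0.51) and ABCC5 (0.53), against a spread of 1.13. Those closest to NLRP12 were ZNF260 (0.45), F12 (0.45) and ANG (0.48), against a spread of 1.29. For IL1A they were PTH2, RASEF and the olfactory receptor gene OR2G2, the last of them a member of the silent set, at 0.07 to 0.08 against a spread of 0.17.

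Marker genes of several blood cell types differed between the same groups. Of 12 monocyte markers 8 were measured, and their mean level ran from 8.98 to 9.50 log2 units with sponge plus Salmonella, from 9.78 to 10.05 with Salmonella and from 7.93 to 8.60 in control libraries. For Salmonella against control 6 of the 8 were called higher and none lower, and for sponge plus Salmonella against Salmonella none higher and 5 lower. Of 15 T cell markers 11 were measured, at 8.58 to 9.16 with sponge plus Salmonella, 7.79 to 8.34 with Salmonella and 9.23 to 9.59 in control libraries. In the same comparisons 10 of the 11 were lower and then 9 higher. CD3D, a chain of the T cell receptor complex, lay below 4.62 in the Salmonella and control groups. The 3 of 9 B cell markers measured stood at 9.03 to 9.50 with sponge plus Salmonella, 7.36 to 7.78 with Salmonella and 9.75 to 10.61 in control libraries. All 3 were lower in the first of these comparisons and higher in the other. For sponge plus Salmonella against control, 5 monocyte markers were higher and none lower. In that comparison 1 T cell marker, CD3D, was higher and 6 were lower, and 2 B cell markers were lower and none higher. The shares of all genes called higher and lower were those given for the other genes of the pathway.

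The 5 measured of 11 markers of natural killer and cytotoxic cells stood at 9.90 to 10.61 log2 units with sponge plus Salmonella, 9.60 to 10.50 with Salmonella and 11.44 to 12.14 in control libraries. All 5 were lower in both groups with Salmonella than in control libraries, and 2 were higher with sponge plus Salmonella than with Salmonella. The 5 measured of 8 eosinophil and basophil markers stood at 6.08 to 6.998 with sponge plus Salmonella, 5.36 to 5.89 with Salmonella and 7.15 to 7.76 in control libraries. All 5 fell with Salmonella relative to control, and 3 were higher with sponge plus Salmonella than with Salmonella. Against control, 3 were lower with sponge plus Salmonella and none higher. ALOX15 and EPX lay below 4.62 in the Salmonella group. The 7 measured of 8 platelet markers stood at 8.47 to 8.85 with sponge plus Salmonella, 8.28 to 8.80 with Salmonella and 7.67 to 7.96 in control libraries. Of the 7, 5 were higher with Salmonella than in control libraries, and between sponge plus Salmonella and Salmonella 2 were higher and 1 was lower. Against control, 2 were higher with sponge plus Salmonella and none lower. PF4 lay below 4.62 in the sponge plus Salmonella group.

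The neutrophil list, by contrast, overlapped between all groups. Of 20 markers 11 were measured, at 7.38 to 8.04 log2 units with sponge plus Salmonella, 7.60 to 8.76 with Salmonella and 7.50 to 8.02 in control libraries. For Salmonella against control 2 were higher and 1 lower, for sponge plus Salmonella against Salmonella 1 was lower, and for sponge plus Salmonella against control 1 was higher and 2 were lower. MMP8 lay below 4.62 in the sponge plus Salmonella and control groups. The part of cell composition in the differences of the 6 genes was not tested.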

How the data were processed

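Per the labels' protocols, a PAXgene kit served for RNA and a TruSeq kit for libraries, which per the series text gave 50-base single reads. The submitters' processing notes name Sscrofa11.1 as the build and Bowtie and R 3.4.2 as tools, with no role for either. The authors deposited values on a log2 scale, 1 for each of 7480 gene symbols in each of 12 libraries, from 2.13 to 15.01, and the base was taken as 2. How reads were counted, normalized and filtered is not given in the sources used here. Depth is unknown, so no counting error is given.

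The deposited values were used unchanged in limma 3.58.1 (R 4.3.3), with group means of all 12 libraries in 1 fit and empirical Bayes variances that follow a mean trend. The 2-sided p-values were adjusted by the Benjamini-Hochberg method over all 7480 genes. The script was tested on simulated data. Exact permutation tests of single genes were 2-sided, and the smallest p that 4 against 4 libraries allow is 0.0286. The silent set held 185 symbols of 6 families, 53 of them in the pig gene tables. Of all symbols, 334 (4.47%) were not in those tables. The 6 genes matched, 5 of them with a RefSeq locus and PYCARD without. No sequences are shown. The members and lists were chosen with earlier results of these data known. The genes named are the 6 members, the pathway genes called in any comparison or counted as not called, and the 3 closest profiles of each member. Alternatives were median centring, quantile normalization, a filter on a mean of at least 5, variances without a trend, robust moderation, fits of 2 groups, library weights, a replicate block and leaving out each library.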

Additional observations from a re-analysis of the deposited data

Results flagged for a closer look

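Of 66 sets of 4 libraries examined, for 22 named genes in 3 groups, 2 had a library far from the others, and chance flags about 1 in 20. IL33 stood at 3.90 log2 units in its lowest sponge plus Salmonella library, and NLRP9 at 5.42 in its highest control library. Among the 6 members no set was flagged, though sponge plus Salmonella replicate 1 came close for IL1R2, with a gap of 0.807 of the group's range.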

How the results depend on the processing

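No called direction of the 6 members turned under any alternative run, and the calls of IL1B and NLRP12 against control, IL1R2 for Salmonella against control, IL18 for sponge plus Salmonella against control and PYCARD for sponge plus Salmonella against Salmonella held in all of them. For Salmonella against control, PYCARD was no longer called under median centring (0.65, limma adjusted p = 0.058), the replicate block (0.74, 0.0673) or the exact permutation test (0.74, p = 0.0571), and without single libraries its change ran from 0.62 to 0.95. IL1A was not called there without a variance trend (-0.29), and ran from -0.33 to -0.24 without single libraries. For sponge plus Salmonella against Salmonella, IL1A was not called under median centring (0.25), without a trend (0.29) or by the exact test (0.29), and ran from 0.21 to 0.35. IL18 ran from 0.57 to 0.89. IL1R2, at 1.28, was not called without a trend, with robust moderation, in the fit of the 2 groups or by the exact test, and ran from 1.02 to 1.83. For sponge plus Salmonella against control, IL1R2 was called under median centring (-1.10) and with the replicate block (-0.98), and ran from -1.24 to -0.43. PYCARD, at -0.69, was not called without a trend, with the replicate block or by the exact test, and ran from -0.88 to -0.49. The cause of these changes was not tested.

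The labels name no pairing, so the replicate numbers were not taken as pairs. Correlations of deviations across genes between same-numbered libraries had both signs, from -0.36 to 0.377. The highest was that of replicate 4 of Salmonella and control. They were not compared with those of differently numbered libraries, so pairing is not settled by them. The block gave 2371 calls for Salmonella against control, 1706 for sponge plus Salmonella against Salmonella and 2907 for sponge plus Salmonella against control, where the fit without it gave 2513, 1873 and 3057. Median centring moved the split of all calls for Salmonella against control to 965 higher and 1778 lower, where the deposited values gave 1175 and 1338. For sponge plus Salmonella against control it gave 1062 and 2569, where the deposited values gave 1336 and 1721, and it moved the median of all genes from -0.07 to -0.20. IL1A fell below the minimum mean of 5 and has no value under that filter. No pseudocount was varied, as log values take none. When the closest profiles were drawn up again without 1 library, an alternative chosen after seeing the data, 65 lists kept at least 2 of the 3 genes and 7 kept 1. The unknown depth and the background near 4.62 limit the sizes read for IL1A, NLRP12 and PANX1.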

Other observations

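Ranks within a library do not depend on a monotone rescaling of its column, and are read here only across libraries of the same gene. Whether the ties of the sponge plus Salmonella columns come from such a rescaling is not known. NLRP12 stood between the 55.2 and 60.6 percentiles of all 7480 genes in the sponge plus Salmonella libraries, between 47.3 and 56.9 in the Salmonella libraries and between 79.7 and 86.5 in the control libraries. IL18 stood between 99.5 and 99.7 with sponge plus Salmonella, between 98.0 and 99.3 with Salmonella and between 97.8 and 99.1 in control libraries. Its ranks kept the separation seen in its values by a narrow margin, which does not remove the difference in column format. PYCARD stood between 68.5 and 78.9 with sponge plus Salmonella, between 81.8 and 88.9 with Salmonella and between 78.6 and 83.1 in control libraries.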
